A study of Mus musculus with 4 samples.

Results

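The T cell receptor (TCR) is read out by a small set of proteins that stay with it at the membrane. The 10 genes described here encode the CD3 chains Cd3d, Cd3e and Cd3g, the zeta chain Cd247, the coreceptors Cd4, Cd8a and Cd8b1, the kinases Lck and Zap70 and the adapter Lat. They were taken as a named list that follows their roles, and all 10 were found among the 14697 genes of the UMI table of mouse peripheral blood. The table holds 14588 cells and 50780376 UMIs, a UMI being 1 tagged RNA molecule counted at the 3′ end of its transcript. Cells came from 2 young and 2 old samples of female C57BL/6 mice, aged 4 months and 24 months. Each sample was a pool of blood from 2 mice, and the labels name no treatment or allele in either age group. A difference between samples is therefore one between pools and not between single animals. Levels were read in T cell subsets and natural killer (NK) cells, and the background was read in B cells and monocytes.

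In textbook terms, the TCR chains bind the peptide and carry no signaling tail of their own, and the CD3 chains and the CD247 dimer supply the immunoreceptor tyrosine-based activation motifs (ITAMs). CD4 binds MHC class II and CD8 binds MHC class I, and both bring LCK, the Src family kinase that phosphorylates the ITAMs. ZAP70 docks on the phosphorylated ITAMs and phosphorylates LAT, a membrane scaffold on which the downstream signalosome assembles. NK cells have no rearranged TCR, but they use CD247, together with FCER1G and TYROBP, as a signaling adapter of activating receptors.

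In the GRCm38 annotation the CD3 genes lie together on chromosome 9, with Cd3g (44969572 to 44980431, minus strand) 1354 bases from Cd3d (44981786 to 44987339, plus strand) and Cd3d 11400 bases from Cd3e (44998740 to 45009627, minus strand). Cd247 lies apart from them, on chromosome 1 (165788681 to 165877277, plus strand). Cd8b1 (71322788 to 71337494) and Cd8a (71373427 to 71379173) are neighbours on the plus strand of chromosome 6, 35932 bases apart, and Cd4 is on the minus strand of the same chromosome (124864692 to 124888221). Lck is on chromosome 4 (129548344 to 129573641, minus strand), Zap70 on chromosome 1 (36761798 to 36782818, plus strand) and Lat on chromosome 7 (126363824 to 126369570, minus strand). Cd247 overlaps Pou2f1 and predicted genes, and Zap70 and Cd3e overlap predicted genes, on the opposite strand. Whether the counting used strand is not stated in the sources used here, so reads of these pairs may be shared. On the same strand, where strand cannot separate reads, Cd3e overlaps Gm48720, Cd247 overlaps Gm16565, Lck overlaps Mir8119 and Lat overlaps Mir7058.

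The windows around annotated starts (250 bases before to 50 after, RefSeq, GRCm38.p6) are shown for the CD3 genes and Cd247, which encode 1 complex but had unlike levels in NK cells, and for Lat and Lck, which also stood apart from each other there. Capitals mark 3 motifs searched on both strands, namely AGGAAG (an ETS core), TGTGGT (a RUNX core) and CAGCTG (an E protein box). They occur in 35.4%, 16.8% and 16.3% of the 32851 windows of this length, so a match is a description of the sequence and not a binding site. Of the 10 genes 8 had a window, 11 windows in all.
Cd3g, chr9:44980382-44980681, minus strand: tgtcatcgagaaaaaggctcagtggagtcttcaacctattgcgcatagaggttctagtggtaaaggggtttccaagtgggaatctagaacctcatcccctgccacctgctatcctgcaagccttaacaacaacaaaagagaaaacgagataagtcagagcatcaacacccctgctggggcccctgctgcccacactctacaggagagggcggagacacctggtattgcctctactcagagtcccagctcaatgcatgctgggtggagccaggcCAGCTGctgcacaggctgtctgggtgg
Cd3d, chr9:44981536-44981835, plus strand: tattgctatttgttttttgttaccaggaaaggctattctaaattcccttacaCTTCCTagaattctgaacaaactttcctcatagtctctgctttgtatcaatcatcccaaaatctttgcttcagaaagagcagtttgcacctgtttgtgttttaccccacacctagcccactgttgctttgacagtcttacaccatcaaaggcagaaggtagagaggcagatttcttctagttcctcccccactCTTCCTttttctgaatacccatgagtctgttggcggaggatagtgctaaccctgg
Cd3e, chr9:45009562-45009861, minus strand: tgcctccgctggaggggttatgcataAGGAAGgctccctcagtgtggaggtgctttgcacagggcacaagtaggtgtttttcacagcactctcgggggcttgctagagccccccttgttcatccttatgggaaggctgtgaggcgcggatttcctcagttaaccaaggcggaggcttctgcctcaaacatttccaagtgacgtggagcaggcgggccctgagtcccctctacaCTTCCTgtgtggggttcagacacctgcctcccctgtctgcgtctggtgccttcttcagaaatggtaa
Cd247, chr1:165788431-165788730, plus strand: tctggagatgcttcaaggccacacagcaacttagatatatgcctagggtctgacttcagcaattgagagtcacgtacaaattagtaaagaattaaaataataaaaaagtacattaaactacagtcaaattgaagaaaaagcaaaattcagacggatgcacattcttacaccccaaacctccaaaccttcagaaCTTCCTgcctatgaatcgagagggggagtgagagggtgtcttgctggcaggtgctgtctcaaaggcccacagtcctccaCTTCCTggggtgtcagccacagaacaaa
Lat, chr7:126369519-126369818, minus strand: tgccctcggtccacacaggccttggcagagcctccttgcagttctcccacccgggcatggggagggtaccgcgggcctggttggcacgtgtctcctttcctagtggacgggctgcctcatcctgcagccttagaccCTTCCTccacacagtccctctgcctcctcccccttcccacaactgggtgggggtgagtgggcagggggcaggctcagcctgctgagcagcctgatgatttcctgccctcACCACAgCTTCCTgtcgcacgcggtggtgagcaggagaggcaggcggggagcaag
Lck, chr4:129558323-129558622, minus strand: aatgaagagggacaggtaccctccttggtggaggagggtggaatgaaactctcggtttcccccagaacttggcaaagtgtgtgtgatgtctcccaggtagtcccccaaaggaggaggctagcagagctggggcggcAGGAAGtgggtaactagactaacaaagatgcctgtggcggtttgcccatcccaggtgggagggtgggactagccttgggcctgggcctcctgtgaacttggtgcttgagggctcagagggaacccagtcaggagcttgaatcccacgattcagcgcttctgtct
Lck, chr4:129573592-129573891, minus strand: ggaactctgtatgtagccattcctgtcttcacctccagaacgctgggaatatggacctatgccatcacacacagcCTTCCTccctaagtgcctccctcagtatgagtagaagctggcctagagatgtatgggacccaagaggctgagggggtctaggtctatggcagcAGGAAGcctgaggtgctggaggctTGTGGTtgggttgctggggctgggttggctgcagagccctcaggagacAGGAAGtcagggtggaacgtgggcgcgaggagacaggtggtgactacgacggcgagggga
Cd3d, Cd3e and Cd247 each had 2 ETS matches and no RUNX match, Cd3g had 1 E protein box, and Lat had 2 ETS matches and 1 RUNX match. The start of Lck nearer its coding exons had 1 ETS match, and the upstream start had 3 ETS matches and 1 RUNX match. The UMI counts do not show which start a cell used.

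Cells were assigned by raw marker UMIs. A T cell had at least 2 UMIs of Cd3d, Cd3e and Cd3g in sum, at most 1 UMI of the B cell genes Cd79a and Cd79b and none of the monocyte receptor Csf1r. Conventional T cells had no UMI of the NK receptor genes Ncr1, Klre1 and Klrb1c, NK-receptor T cells had at least 1, and NK cells had at least 2 of them with at most 1 Cd3 UMI. Each Cd3 gene was itself read in cells gated on the other Cd3 genes, so its own UMIs did not admit the cells. Conventional T cells numbered 915 and 709 in young samples 1 and 2 and 199 and 159 in old samples 1 and 2, which is 23.4%, 18.4%, 4.29% and 7.27% of all cells. There were 138, 146, 52 and 24 NK cells and 148, 149, 55 and 37 NK-receptor T cells in the same order of samples, and 2099, 2086, 3481 and 1541 B cells. Levels are given as CPM, the UMIs of a gene scaled to 1000000 UMIs of the class in that sample. They are not divided by transcript length, and levels of different genes are therefore not compared.

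The gates were checked on genes that they did not use. The summed level of Thy1, Cd2, Cd5, Cd6 and Cd28 was 1477 to 2173 CPM in conventional T cells over the 4 samples, 624 to 879 CPM in NK cells and 378 to 572 CPM in B cells. Most of the sum in B cells was Cd2 (351 to 562 CPM), a receptor that mouse B cells also carry, and Cd5 and Cd6 stayed at or under 4.08 CPM there. The NK genes Nkg7, Prf1, Gzma and Eomes summed to 16368 to 24953 CPM in NK cells and 606 to 1603 CPM in conventional T cells. The median cell held 2332, 2233, 3186.5 and 3482 UMIs in young samples 1 and 2 and old samples 1 and 2. Between 11 and 24 cell barcodes were shared by each pair of samples.

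The CD3 chains were detected together in most gated T cells. For this measure the gate used all 3 Cd3 genes, with at least 2 UMIs in sum, so the selection itself favors joint detection. All 3 Cd3 genes had a UMI in 65.0%, 57.3%, 61.8% and 72.3% of conventional T cells of young samples 1 and 2 and old samples 1 and 2. After each cell was thinned to 1000 UMIs these shares were 18.4%, 15.9%, 20.1% and 18.2%, so the shares depend on depth. Cd3d, a chain that pairs with Cd3e, stood at 938 and 872 CPM in the young and at 886 and 993 CPM in the old conventional T cells. Cd3e, which forms a dimer with either of the other chains, stood at 592 and 523 CPM (young) and at 716 and 642 CPM (old), with both old samples above both young ones. For Cd3g the levels were 960 and 872 CPM (young) and 954 and 848 CPM (old), and for Cd247 they were 231 and 180 CPM (young) and 232 and 156 CPM (old). Apart from Cd3e, the ranges of the ages overlapped for each of these chains.

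The CD3 chains had overlapping levels in the T cell classes. In Cd4 T cells Cd3d stood at 993, 852, 815 and 1138 CPM and in Cd8 T cells at 989, 894, 931 and 1047 CPM in young samples 1 and 2 and old samples 1 and 2. Cd3g stood at 992, 834, 1038 and 1056 CPM in Cd4 T and 936, 856, 815 and 691 CPM in Cd8 T cells. These ranges overlapped. NK-receptor T cells held Cd3e at 636, 726, 529 and 645 CPM, within the range of 504 to 758 CPM of Cd4 T and Cd8 T cells. Their Cd3g was at 1083 and 1156 CPM (young) and 841 and 824 CPM (old), with no overlap of the ages. Their Cd247 was at 130 and 132 CPM (young) and 212 and 150 CPM (old), and the young values lay at the level of Cd8 T cells (127 to 162 CPM). Treg-like T cells (26, 31, 11 and 11 cells), with a UMI of Foxp3 or of both Ikzf2 and Tnfrsf4, held Cd247 at 278, 184, 150 and 75.5 CPM, from few UMIs per old sample.

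Coreceptor RNA was sparse and divided the T cells unevenly. Cd4 stood at 96.7 and 90.2 CPM in young and at 85.3 and 99.1 CPM in old conventional T cells. Cd8a stood at 142 and 112 CPM (young) and 135 and 122 CPM (old), and Cd8b1 at 473 and 297 CPM (young) and 445 and 382 CPM (old). A Cd4 UMI without a Cd8 UMI marked 21.4% and 19.7% of young and 19.6% and 18.2% of old conventional T cells (Cd4 T cells, 196, 140, 39 and 29 cells). A Cd8a or Cd8b1 UMI without Cd4 marked 32.9% and 23.7% of young and 33.7% and 32.7% of old ones (Cd8 T cells, 301, 168, 67 and 52 cells). No UMI of any coreceptor was seen in 44.2% and 54.9% (young) and 46.7% and 49.1% (old) of all conventional T cells, at a median of 2181 to 2557.5 UMIs per cell. At this depth a T cell without a coreceptor UMI is not shown to lack the protein. Cells with both coreceptors numbered 14 and 12 in the young samples and 0 in the old samples, which held 199 and 159 conventional T cells.

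The ratio of Cd8b1 to Cd8a UMIs was lower in NK-receptor T cells than in conventional T cells. It was 3.33 and 2.65 in young and 3.29 and 3.12 in old conventional T cells. NK-receptor T cells had 1.97 and 1.56 (young) and 2.57 and 2.23 (old), below the conventional T cells of the same sample in each of the 4 samples. In T cells with a UMI of Gzmk, a granzyme of effector memory cells (11, 17, 33 and 28 cells), it was 2.00, 1.77, 2.51 and 2.83. CD8 is either an alpha homodimer or an alpha-beta heterodimer, and a lower ratio gives less Cd8b1 RNA per Cd8a RNA. These ratios are descriptions with no test, since they rest on 11 to 88 Cd8a or Cd8b1 UMIs per sample in Gzmk T cells.

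The kinases and the adapter were found in every T cell class. Lck stood at 675 and 609 CPM in young and at 659 and 608 CPM in old conventional T cells, and Zap70 at 114 and 90.2 CPM (young) and 135 and 112 CPM (old). Lat stood at 600 and 533 CPM (young) and at 579 and 599 CPM (old). The ages overlapped for each of the 3 genes. Over Cd4 T, Cd8 T, NK-receptor T and NK cells, Lck lay between 609 and 765 CPM in each of the 16 sums of a class in a sample, so the order of these classes was within the spread between samples. Zap70 lay between 73.4 and 194 CPM in the same sums, again without separation of the classes. For Lat the order was Cd4 T (554 to 856 CPM), Cd8 T (463 to 562 CPM), NK-receptor T (334 to 455 CPM), NK (44.0 to 123 CPM) and B cells (3.98 to 22.6 CPM), where only Cd4 T and Cd8 T cells, of the neighbours in this order, had overlapping ranges. Gzmk T cells had 720, 844, 896 and 845 CPM of Lat and 806, 726, 982 and 751 CPM of Lck, from 25 to 91 UMIs per sample.

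**Figure D1:**
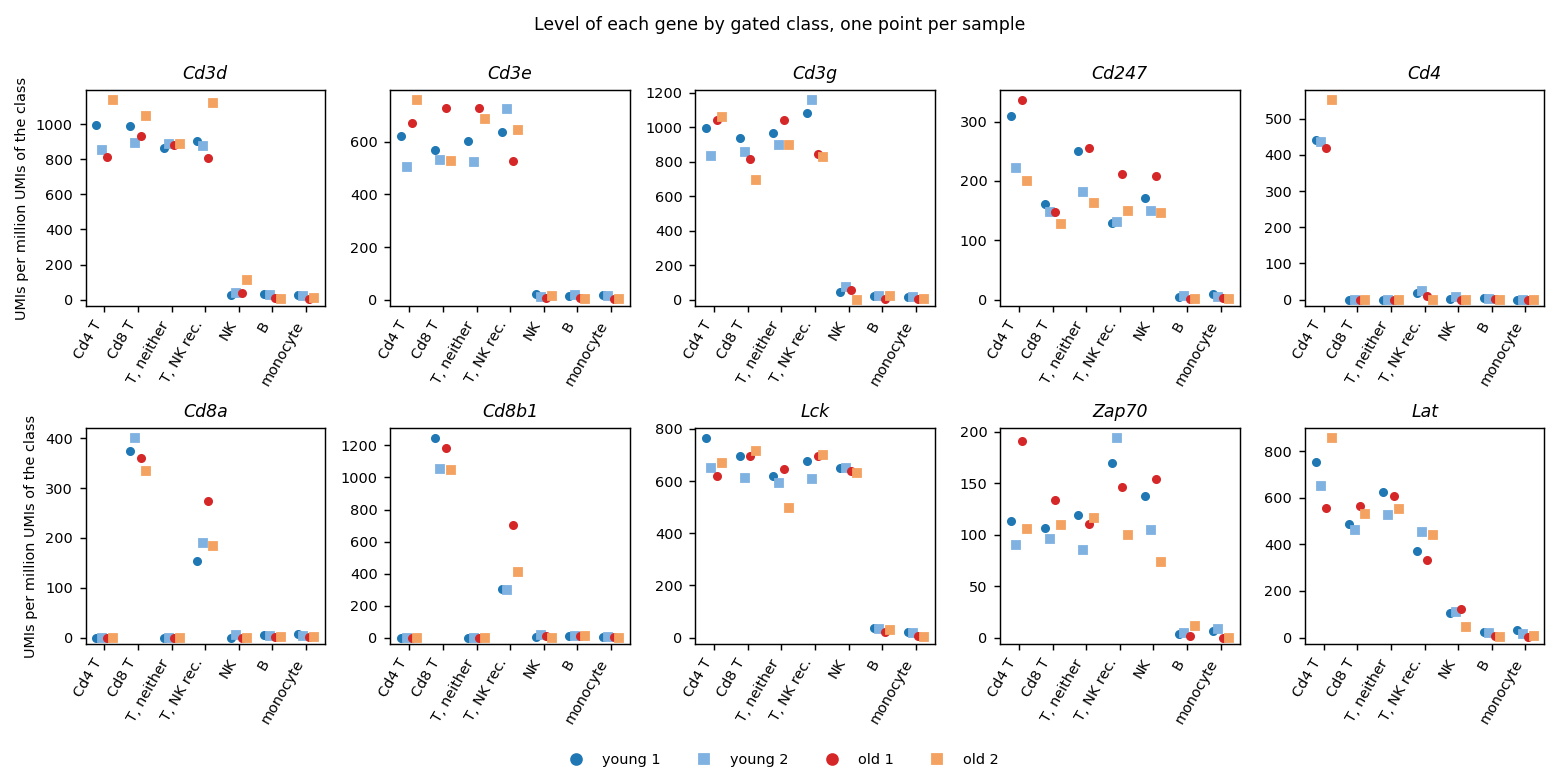
Level of each of the 10 genes in 7 gated classes, with 1 point per sample (young 1, young 2, old 1, old 2) in CPM on the vertical axis, whose scale differs between panels. Lck of NK cells (631 to 651 CPM) lies in the range of T cells, and Zap70 of NK cells (73.4 to 154 CPM, lowest in old sample 2) overlaps it. Cd3d, Cd3e and Cd3g of NK cells lie at or below 113 CPM, and Lat lies between T and B cells.

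As a description of likeness, the mean of the 3 Cd3 genes was compared with each of 8846 genes over 28 sums of a class in a sample (7 classes, log2 of CPM with 1 added). The 5 closest genes outside the list were Bcl11b (Pearson's r = 0.970), a transcription factor of T lineage commitment, the RIKEN transcript 5830468F06Rik (0.969), Themis (0.960), a TCR signaling adapter, and the receptors Cd6 (0.959) and Cd5 (0.95). Among the listed genes Lat followed the Cd3 chains with r = 0.897, while Cd247 (0.699), Zap70 (0.689), Lck (0.682), Cd8a (0.400), Cd4 (0.378) and Cd8b1 (0.319) followed them less closely. The sums share libraries and depth, and the 3 Cd3 genes themselves defined the classes. Cd4, Cd8a and Cd8b1 also split the T cells into classes, some of which could hold none of their UMIs. Their values of r were therefore set in part by the gates.

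The comparison of conventional T cells with NK cells of the same samples asked which of the proximal genes NK cells also express. Cd3d stood at 872 to 993 CPM in conventional T cells and at 24.1, 38.0, 37.8 and 113 CPM in NK cells (8, 13, 5 and 9 UMIs). Cd3e stood at 523 to 716 CPM in conventional T cells and at 21.0, 11.8, 7.56 and 14.2 CPM in NK cells (7, 4, 1 and 1 UMIs). Cd3g stood at 42.0, 71.8 and 57.9 CPM in NK cells of the first 3 samples and had no UMI in those of old sample 2, where a count of 0 allows up to 44.0 CPM. These 3 genes passed the detection filter (a UMI in at least 10% of the cells of either class) only through T cells, and the NK gate limited their partners, so their fitted folds of 26.4, 48.0 and 21.5 are descriptions. Cd4, Cd8a and Cd8b1 together had between 0 and 10 UMIs per sample in NK cells.

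Of the 4 remaining genes, which had a UMI in at least 10% of both classes, 2 passed the test and both were higher in conventional T cells. Over the genes detected in both classes 26% passed, over all genes tested 33% passed, and 17% of all were higher in conventional T cells. Lat was at 104, 110, 123 and 44.0 CPM in NK cells against 600, 533, 579 and 599 CPM in conventional T cells, with no overlap in any sample. It was 6.77-fold higher in conventional T cells (95% interval 5.29 to 8.66, log2 fold change 2.76, SE 0.17, adjusted p = 6.61e-10). The Lat level in NK cells stood above that in B cells of the same sample (22.6, 18.6, 7.91 and 3.98 CPM) in all 4 samples, though old sample 2 gave only 3 UMIs.

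As a description, because the gates used the Cd3 genes, Cd247 differed far less between these classes than those genes. It stood at 171, 149, 208 and 147 CPM in NK cells and at 231, 180, 232 and 156 CPM in conventional T cells, higher in the T cells of each sample but with overlapping ranges. On this plain CPM scale NK cells held 74.2%, 82.8%, 89.6% and 94.0% of the level of conventional T cells. The fit rescales the classes so that the median gene lies near 0, and its folds of T over NK cells therefore differ from plain CPM. The fitted fold was 1.48 (95% interval 1.18 to 1.86, log2 fold change 0.57, SE 0.15, adjusted p = 0.0082). This call was lost with DESeq2 (adjusted p = 0.11), with T cells gated on genes outside the list (0.14) and without young sample 1 (0.13) or young sample 2 (0.092).

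Lck and Zap70 did not pass. Lck stood at 650, 651, 639 and 631 CPM in NK cells, inside the range of the conventional T cells (608 to 675 CPM), and the fold of T over NK cells was 1.18 (95% interval 0.976 to 1.42, adjusted p = 0.18). After thinning to 1000 UMIs, 44.2%, 52.7%, 48.1% and 41.7% of NK cells and 48.1%, 46.1%, 47.2% and 47.2% of conventional T cells had an Lck UMI, against 4.29%, 3.79%, 2.18% and 2.66% of B cells. Before thinning the shares were 73.9% to 78.8% in NK cells, 77.4% to 79.9% in conventional T cells and 7.61% to 10.9% in B cells, at median depths of 1952 to 2474.5, 2401 to 2745 and 2063.5 to 3270 UMIs. Zap70 stood at 137, 105, 154 and 73.4 CPM in NK cells, which was 121%, 116%, 114% and 65.6% of the level in conventional T cells. The fitted fold of T over NK cells was 1.09 (95% interval 0.860 to 1.38, adjusted p = 0.60). Its direction was thus not that of the plain CPM in most samples. The intervals leave room for a difference of up to 1.42-fold for Lck and 1.38-fold for Zap70.

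Other genes of the pathway were taken as lists, of which only genes detected in both classes are counted here. Over all genes detected in both classes 26% passed. Of 15 kinases, adapters and downstream genes, 8 were higher and 4 lower in conventional T cells, with a median log2 fold change of 0.51 against 0.01 over all genes detected in both classes. The ones lower in T cells included the Tec kinase Txk (log2 fold change -1.16, SE 0.15, adjusted p = 9.60e-06), the phosphatase Ptprc (-0.83, SE 0.12) and the Src kinase Fyn (-0.46, SE 0.17, adjusted p = 0.049), and Fyn lost its call under 10 of 12 other settings. Lcp2, the adapter SLP-76 that binds the LAT complex, was higher in conventional T cells (0.76, SE 0.21, adjusted p = 0.0085). Of 8 negative regulators 1 was lower and 0 were higher, the lower one being the adapter Dok2 (-1.69, SE 0.16).

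Of 5 costimulatory and adhesion receptors detected in both classes, 2 were higher and 2 lower in conventional T cells, where 26% of all such genes passed. Thy1 was higher (2.26, SE 0.15), and the integrin chains Itgb2 (-2.02, SE 0.12) and Itgal (-1.51, SE 0.14) were lower. Cd5 and Cd28 were detected in at least 10% of T cells only. Cd5, an inhibitory receptor of T cells, had 0, 3, 0 and 0 UMIs in NK cells and 318, 230, 94 and 82 UMIs in conventional T cells. Of 3 signaling adapters of NK receptors, Fcer1g and Tyrobp carry ITAMs and Hcst carries a motif for PI3 kinase, and 2 were lower and 0 higher in conventional T cells. Fcer1g stood at 3209, 2846, 3465 and 2935 CPM in NK cells against 45.1, 62.4, 148 and 54.8 CPM in conventional T cells, and Tyrobp at 3899, 3512, 4450 and 3522 CPM against 47.0, 71.8, 96.5 and 33.8 CPM. The kinase Syk, related to Zap70, was detected mostly in B cells (205, 200, 234 and 245 CPM), with 39.7, 89.6, 38.5 and 14.7 CPM in NK cells.

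**Figure D2:**
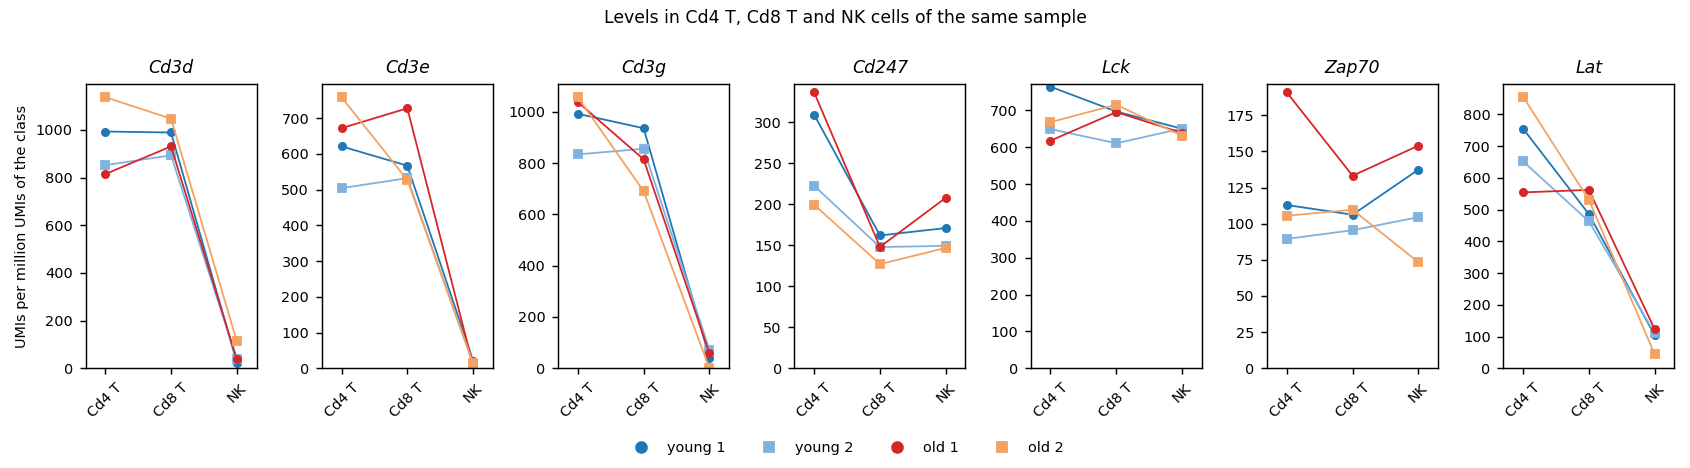
Level of 7 genes in Cd4 T, Cd8 T and NK cells, in CPM, with 1 line per sample joining the classes of that sample. Lines for Lck and Zap70 show no common drop into NK cells, Lat drops to 44.0 to 123 CPM, and Cd247 is higher in Cd4 T cells (199 to 336 CPM) than in Cd8 T cells (127 to 162 CPM).

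Cd8 T cells were compared with Cd4 T cells of the same sample, with the coreceptor genes left out because they set the gates. Of the 7 other genes 2 passed the test, both lower in Cd8 T cells. Over all 3164 genes tested 7.4% passed, 2.88% were lower in Cd8 T cells, and over the genes detected in both classes 6.93% passed. Cd247 stood at 309, 223, 336 and 199 CPM in Cd4 T cells and at 162, 148, 148 and 127 CPM in Cd8 T cells, so each Cd4 T value lay above each Cd8 T value. Its fold was 0.600 (95% interval 0.497 to 0.726, log2 fold change -0.74, SE 0.13, adjusted p = 0.0013). The size held with DESeq2 (-0.73) and without young sample 1 (-0.65), but the call did not (adjusted p = 0.14 and 0.15).

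Lat stood at 755, 652, 554 and 856 CPM in Cd4 T cells and at 486, 463, 562 and 531 CPM in Cd8 T cells, lower in the Cd8 T cells of 3 of 4 samples. The fold was 0.761 (95% interval 0.660 to 0.877, log2 fold change -0.39, SE 0.10, adjusted p = 0.017), and the call was lost under 5 other settings, with adjusted p up to 0.92 for DESeq2. Cd3d (0.13, SE 0.09), Cd3e (0.03, SE 0.09), Cd3g (-0.08, SE 0.10), Lck (0.07, SE 0.15) and Zap70 (0.01, SE 0.17) did not pass, and their intervals reached from a fold of 0.793 to 1.30. The groups also differed in depth and in other genes. The median cell held 2686 to 3144.5 UMIs in Cd8 T and 2206 to 2753.5 UMIs in Cd4 T cells, and the 4 NK genes summed to 1117 to 2615 CPM in Cd8 T and 141 to 945 CPM in Cd4 T cells, none of the 4 being at 0. The part of either in these differences was not tested.

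Among the pathway lists, the costimulatory and adhesion receptors had the most calls in this comparison, with 4 of 9 lower in Cd8 T cells and 0 higher. These were Icos (-1.0, SE 0.27), Cd5 (-0.99, SE 0.18), Cd6 (-0.92, SE 0.15) and Cd28 (-0.88, SE 0.12, adjusted p = 0.00011). Cd28, the main costimulatory receptor, stood at 426, 358, 364 and 481 CPM in Cd4 T and 184, 180, 222 and 317 CPM in Cd8 T cells. Of 18 kinases and adapters only Fyb, an adapter to the integrins, passed (-0.40, SE 0.12), and of 11 negative regulators the phosphatase Ptpn22 was higher (0.79, SE 0.16) and the diacylglycerol kinase Dgka lower (-0.51, SE 0.15). Fyb and Dgka lost their calls under 8 and 9 of 12 other settings. Of the 3 NK receptor adapters Hcst was higher (0.33, SE 0.07). The shares of the lists called were 44.4%, 5.56%, 18.2% and 33.3% in this order, against 7.4% of all genes. The list medians were -0.11, -0.02, -0.00 and 0.31 in the same order, against 0.00 over all genes.

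Old and young samples were compared within each class, with 2 samples per age. None of the 10 genes passed in conventional T cells by edgeR's quasi-likelihood test, in which 11.3% of 2486 genes did. DESeq2 also called 0, and 0 of the 10 had an unadjusted p under 0.05. The log2 fold changes of old over young ran from -0.21 (Cd247, SE 0.17) to 0.15 (Cd3e, SE 0.09), the smallest adjusted p was 0.27 (Cd3g), and the 95% intervals lay between -0.59 and 0.51, so differences inside these bounds are not shown to be absent. The fit sets the median gene near 0, whereas on the plain CPM scale the median gene of conventional T cells was 0.13 higher in the old samples (log2), and Cd4 T, Cd8 T and NK cells shifted by 0.15, 0.08 and -0.10.

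Several other features of the T cells differed between the ages. Cd4 T cells with an S100a6 UMI, a calcium-binding protein of activated and memory cells, made up 16.8% and 27.1% of young and 82.1% and 72.4% of old Cd4 T cells. Cd8 T cells with at least 2 UMIs of the chemokine Ccl5 made up 34.6% and 44.6% of young and 94.0% and 76.9% of old Cd8 T cells, and Gzmk T cells made up 1.2% and 2.4% of the conventional T cells in young samples and 16.6% and 17.6% in old samples. Platelet RNA also moved with age, since Ppbp and Pf4 summed to 0.765 and 6.44 CPM in young and 347 and 221 CPM in old conventional T cells, of which 22.1% and 14.5% had a Ppbp UMI. The 4 NK genes summed to 606 and 731 CPM (young) and 1603 and 1122 CPM (old), with none at 0. Ly6c2, Ccr2 and Cst3, which served as monocyte markers, summed to 547 and 469 CPM (young) and 907 and 846 CPM (old), also with none at 0. Their sum also differed between T cell classes, at 779 to 1570 CPM in Cd8 T and 211 to 436 CPM in Cd4 T cells. In B cells it was 334 to 472 CPM, without separation of the ages. Whether the sum in T cells reflects monocyte RNA was not tested. The red cell genes Hba-a1 and Hbb-bs did not separate the ages (10322 to 63376 CPM). The part of these in the age values was not tested.

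In Cd4 T cells 0 of 7 genes passed (2.42% of 2440 genes did), with 0 by DESeq2 and 0 at an unadjusted p under 0.05. Lck stood at 765 and 650 CPM (young) and 618 and 668 CPM (old), and the log2 fold change was -0.31 (SE 0.16, adjusted p = 0.44). Zap70 stood at 113 and 89.5 CPM (young) and 191 and 106 CPM (old), with 0.42 (SE 0.32, adjusted p = 0.68), and the old values overlapped the young ones. For Cd3e and Cd3g both old samples lay above both young ones in plain CPM. In Cd8 T cells both old samples lay above both young ones for Zap70 and Lat in plain CPM, and neither gene was called. There 0 of 7 passed (6.13% of 2628), with 0 by DESeq2 and 1 at an unadjusted p under 0.05. That gene was Cd3g, at 936 and 856 CPM (young) and 815 and 691 CPM (old), with no overlap and a log2 fold change of -0.34 (SE 0.11, 95% interval -0.59 to -0.10, adjusted p = 0.12). Without old sample 1 the change was -0.46 and passed (adjusted p = 0.028).

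Cd4, Cd8a and Cd8b1 were read in old and young cells that their own UMIs did not select. Cd4 in T cells without a Cd8 UMI stood at 149 and 120 CPM (young) and 137 and 156 CPM (old), with a log2 fold change of -0.06 (SE 0.18), and 7.56% of genes passed there. Cd8b1 in cells gated on Cd8a had 1345 and 1082 CPM (young) and 1250 and 1274 CPM (old), with -0.02 (SE 0.15), where 1.52% passed. Cd8a in cells gated on Cd8b1 had 368 and 399 CPM (young) and 347 and 312 CPM (old), with -0.30 (SE 0.16, adjusted p = 0.38), where 7.37% passed. For this gene both old samples lay below both young ones. None of the 3 passed with edgeR or DESeq2, and 0 had an unadjusted p under 0.05.

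Within the memory-like subsets, chosen after the cell numbers were known, the genes were again not called. In Cd4 T cells with S100a6 (33, 38, 32 and 21 cells) 0 of 7 passed with edgeR or DESeq2 (0.553% of genes did), 0 had an unadjusted p under 0.05, and the log2 fold changes ran from -0.21 to 0.33. In Cd8 T cells with Ccl5 (104, 75, 63 and 40 cells) 0 of 7 passed with either tool (2.71% of genes did), and 1 had an unadjusted p under 0.05. It was Lat, at 385 and 404 CPM (young) and 577 and 506 CPM (old), with no overlap, and its log2 fold change was 0.34 (SE 0.17, adjusted p = 0.42). The ages did not overlap for Cd3d, Cd3e and Lck either, with the old samples above. The share of all genes without overlap was not computed. Cd3g there stood at 818 and 879 CPM (young) and 821 and 665 CPM (old), with -0.29 (SE 0.15, adjusted p = 0.48). In NK cells the 4 genes that passed the detection filter, Cd247, Lck, Zap70 and Lat, were not called (0.44% of genes were), with log2 fold changes from -0.08 to 0.31, 0 calls by DESeq2 and 0 at an unadjusted p under 0.05.

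The age difference was also compared between Cd8 T and Cd4 T cells. Of 7 genes 0 passed with edgeR or DESeq2 (0.585% of 2223 genes did), and 1 had an unadjusted p under 0.05. Lck, with log2 fold changes of -0.31 in Cd4 T and 0.04 in Cd8 T cells, differed by 0.35 (SE 0.17, adjusted p = 0.79), and Cd3g by -0.31 (SE 0.16, adjusted p = 0.92).

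**Figure D3:**
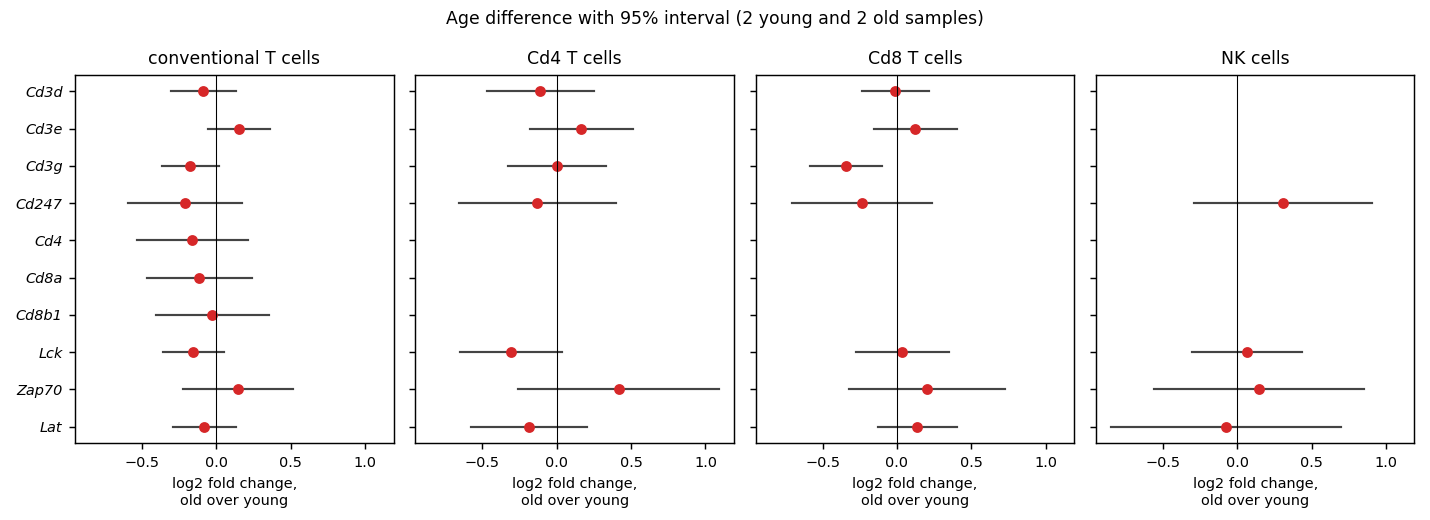
Log2 fold change of old over young (points) with its 95% interval (lines) for the genes tested in conventional T, Cd4 T, Cd8 T and NK cells, from 2 young and 2 old samples. The Cd3g interval in Cd8 T cells (-0.59 to -0.10) is the only one drawn that does not cross 0, and its adjusted p is 0.12.

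Genes of the wider kinase and adapter list and of the negative regulators passed with age in conventional T cells at close to the share of all genes (11.3%). Of 18 kinases and adapters 0 were higher and 2 lower (11.1%), with a list median of -0.02. Rhoh, a GTPase-deficient protein that recruits Zap70, fell from 272 and 239 CPM to 195 and 169 CPM (log2 fold change -0.63, SE 0.13, adjusted p = 0.012). Rasgrp1, the Ras activator below LAT, fell from 123 and 111 CPM to 94.6 and 61.2 CPM (-0.71, SE 0.19, adjusted p = 0.041). Of 10 negative regulators (10% called) only Sla, an adapter that lowers TCR levels, passed, and rose from 50.5 and 62.9 CPM to 117 and 94.9 CPM (0.78, SE 0.21, adjusted p = 0.042, list median 0.07). For Rhoh the call was lost without young sample 1 (adjusted p = 0.089), young sample 2 (0.083) and old sample 2 (0.077). For Rasgrp1 it was lost without the same samples (0.19, 0.22 and 0.20), with a change of -0.47 without old sample 2, and for Sla without any one of the 4 samples (0.077 to 0.33). With DESeq2 Rasgrp1 (0.16) and Sla (0.17) were not called either.

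Costimulatory and adhesion receptors had 2 of 9 higher and 1 lower with age in conventional T cells (33.3% against 11.3% of all genes), with a median of 0.32. Cd6, a scavenger receptor on T cells, rose from 150 and 135 CPM to 273 and 226 CPM (0.67, SE 0.13, adjusted p = 0.011), and Icos rose from 62.7 and 49.6 CPM to 126 and 90.7 CPM (0.82, SE 0.20, adjusted p = 0.026). Cd27, a costimulatory receptor of the TNF receptor family, fell from 376 and 327 CPM to 265 and 266 CPM (-0.54, SE 0.11, adjusted p = 0.013). Of the 3 NK receptor adapters Hcst rose from 581 and 568 CPM to 811 and 814 CPM (0.36, SE 0.09, adjusted p = 0.032). The calls of Cd27 and Hcst were lost without any one of the 4 samples (adjusted p between 0.054 and 0.29). Those of Cd6 and Icos were lost without young sample 1, young sample 2 or old sample 1 (0.071 to 0.23). DESeq2 did not call Icos (0.10) or Hcst (0.079).

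In Cd4 T cells alone, where 2.42% of all genes passed, 1 of the 34 list genes tested did, Cd6 (0.99, SE 0.23, adjusted p = 0.029), at 198 and 161 CPM (young) and 482 and 305 CPM (old). With the gate on thinned cells its sign turned (-0.24, adjusted p = 0.99). The call was also lost without young sample 1 (0.41), young sample 2 (0.60) or old sample 1 (0.60), and the change without old sample 1 was 0.57. In Cd8 T cells Rhoh fell from 287 and 234 CPM to 148 and 121 CPM (-1.02, SE 0.21, adjusted p = 0.0073), and within Cd8 T cells with Ccl5 it was lower as well (-1.08, SE 0.25, adjusted p = 0.0085). In the latter cells the change was -0.50 with the gate on thinned cells (adjusted p = 0.99), and the call was lost without young sample 1 (0.33) or old sample 1 (0.062). By list, and beside 6.13% of all genes, 1 kinase or adapter was higher and 1 lower of 18 (11.1%), 0 negative regulators were higher and 1 lower of 10 (10%), and 1 costimulatory or adhesion receptor was higher and 0 lower of 9 (11.1%). The adapter Nck1 rose from 41.3 and 30.6 CPM to 78.9 and 104 CPM (1.22, SE 0.31) and the integrin chain Itgal from 57.8 and 59.5 CPM to 148 and 127 CPM (1.18, SE 0.26). The phosphatase Ptpn6, SHP-1, fell from 154 and 128 CPM to 74.0 and 57.7 CPM (-1.16, SE 0.28). The calls of Rhoh, Ptpn6 and Itgal in Cd8 T cells were lost without young sample 1 (adjusted p = 0.13, 0.24 and 0.17) and without young sample 2 (0.077, 0.12 and 0.14). Itgal was also lost without old sample 1 (0.10), Ptpn6 without old sample 2 (0.10), and both with DESeq2 (0.076 and 0.12). The call of Nck1 was lost without young sample 2 (0.22) or old sample 2 (0.23). With the gate on thinned cells none of the 4 was called, and Itgal stood at 0.78. In NK cells 0 of 31 list genes passed.

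Cells outside the T and NK lineages carried low levels of these RNAs. In B cells each of the 10 genes stood between 0.250% and 9.99% of its level in conventional T cells of the same sample, and the median gene at 3.20% and 3.11% (young) and 0.923% and 0.640% (old). Both old samples lay below both young ones for 8 of the 10 genes in B cells and for 9 in monocytes. The share of all genes with such an order was not computed, so these counts only describe the 10 genes. In monocytes Zap70 had no UMI in either old sample and Cd8b1 had none in old sample 2. The order of these genes there thus rests on counts at the floor. Among the 8 was Cd8b1, whose means in B cells were close (7.87 CPM young, 7.41 CPM old). Cd3d stood at 31.1 and 28.0 CPM in young and 7.97 and 4.58 CPM in old B cells, and Lat at 22.6 and 18.6 CPM (young) and 7.91 and 3.98 CPM (old). The share of conventional T cells among all cells was 23.4% and 18.4% in young samples and 4.29% and 7.27% in old samples. Whether the T cell share sets this background was not tested. Cd4 had no UMI in the 92, 122, 240 and 178 monocytes of the 4 samples, which allows up to 9.76, 7.90, 3.40 and 3.51 CPM.

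Cd3g and Zap70 were the 2 genes whose old and young B cell levels overlapped, and the level of Lck in B cells stayed above that of monocytes in each sample. Lck stood at 38.4, 34.7, 20.4 and 31.1 CPM in B cells (217, 187, 286 and 203 UMIs), against 22.8, 18.4, 5.67 and 1.17 CPM in monocytes, so in old sample 2 the B cells held far more than the monocytes. Its share of the T cell level was 5.69%, 5.70%, 3.09% and 5.11%. Zap70 stood at 3.54, 4.82, 1.92 and 11.2 CPM in B cells, with an exact Poisson interval of 8.75 to 14.0 CPM in old sample 2 (73 UMIs) that lies above those of the other 3 samples. Cd3g in B cells was 19.4, 19.2, 3.98 and 19.4 CPM, as high in old sample 2 as in the young samples, while Cd8b1 was 7.95, 7.79, 7.48 and 7.34 CPM in the 4 samples. With no limit on Cd3 UMIs in the B gate, so that droplets with both lineages were kept, the median gene stood at 8.64% and 6.88% (young) and 2.34% and 1.83% (old) of its T cell level and the highest at 11.4%, so the share in B cells depends on this limit.

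**Figure D4:**
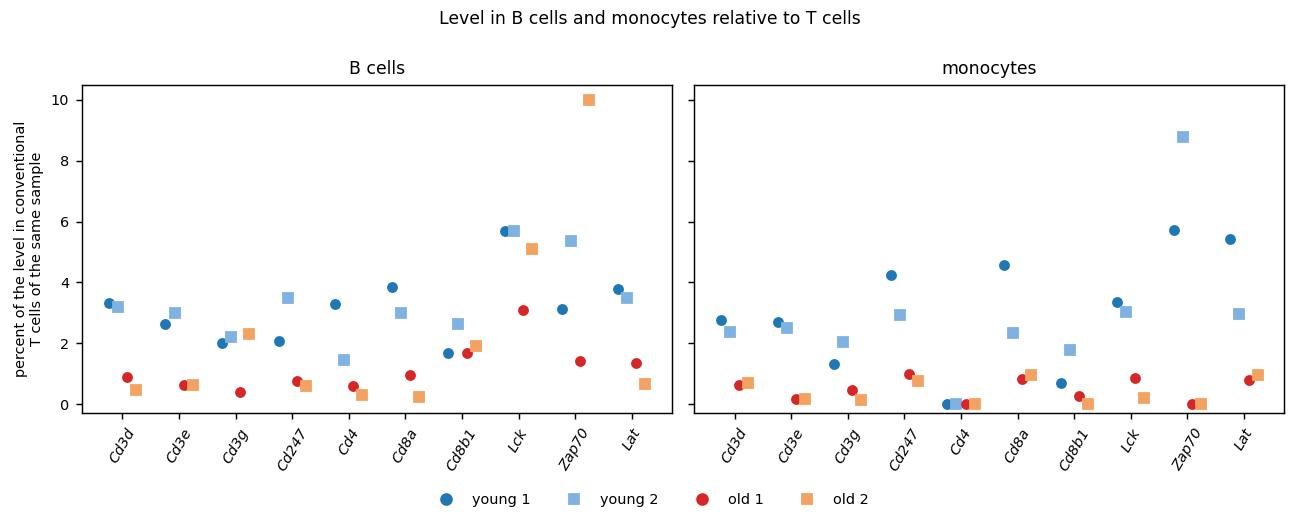
Level of each gene in B cells (left) and monocytes (right) as a percent of its level in conventional T cells of the same sample, with 1 point per sample. Old samples lie below young samples for most genes. The exceptions in B cells are Zap70 (9.99%), Cd3g (2.29%) and Cd8b1 (1.92%) of old sample 2, the last lying above young sample 1 (1.68%). In monocytes Cd4 is at 0 throughout, as are Zap70 in both old samples and Cd8b1 in old sample 2.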

How the data were processed

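Peripheral blood cells of 2 young and 2 old pools were profiled by 10x 3′ RNA sequencing after a density gradient and red cell lysis. The authors deposited UMI counts per gene and cell, not normalized, for cells that had passed their filters on genes per cell and mitochondrial share. Per the labels, Cell Ranger, Seurat 2.3.0 and the build mm10 were used. No version of Cell Ranger is stated there. Each sample's group was taken from its title, and the authors' table assigns each barcode to a sample. Nothing else of that table was used. The sums over a class rest on 2 pools per age, so p-values of the age comparisons rest on the spread between pools. The class comparisons and the age by class test had the sample as a block. Their p-values rest on how the difference between classes within a pool varied over the pools.

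The members, gene lists and tests were chosen with earlier results of these data known. Trac, Trbc1 and Trbc2 were not used here, and the T cell gate therefore rested on Cd3d, Cd3e and Cd3g, with each Cd3 gene read in cells that had at least 2 UMIs of the other 2. B cells had at least 3 Cd79a and Cd79b UMIs, and monocytes at least 1 Csf1r and 3 Lyz2 UMIs. No doublet caller was run. The gates limit droplets that mix T, B, NK and monocyte RNA, but set no limit on platelet or red cell RNA, and doublets within a lineage remain.

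Raw counts were summed per sample and class and tested with edgeR 4.0.16 (quasi-likelihood, TMM scaling, Benjamini-Hochberg adjustment over all genes tested, threshold 0.05) in R 4.3.3. Age comparisons kept genes with a UMI in at least 10% of the cells of the class in each age. Class comparisons kept genes with a UMI in at least 10% of the cells of either class. The age by class test needed 10% in both classes at each age. At least 10 cells per sample were required. Class comparisons had the sample as a block, and the age comparisons had no block. The fits were tested on simulated data. DESeq2 1.42.0, other filters, gates and scalings, and leaving out each sample were tried as alternatives. Shares were also taken after thinning each cell to 1000 UMIs. Intervals on levels are 95% exact Poisson intervals, limits for a count of 0 are 3 counts of the class total, and both cover counting error only. Likeness was taken over genes with at least 10 CPM in a class.

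The 10 members were named in every class. Other pathway genes were given as lists, with values for Fcer1g, Tyrobp, Syk, Fyn, Lcp2, Cd28, Cd5 and Thy1 and for list genes called by age, at most 3 per list and direction by size. List genes named in the comparisons between classes, beyond these, were chosen after their values were seen. Some genes of the marker and pathway lists are not reported here.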

Additional observations from a re-analysis of the deposited data

How the results depend on the processing

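Counts of genes called moved with the settings more than the values of the members did. With DESeq2 the calls were 48 (Cd8 T against Cd4 T), 707 (conventional T against NK), 117 (age, Cd8b1-gated T), 3 (age, NK), 2 (age, Cd4 T with S100a6) and 1 (age by class), members called between Cd8 T and Cd4 T were 0, and the log2 fold changes without a call were -0.73 (Cd247) and -0.35 (Lat) there and 0.54 (Cd247, T against NK). With no detection filter the age calls were 738 (conventional T), 224 (Cd4 T), 319 (Cd8 T), 531 (Cd8-negative T), 190 (Cd8a-gated), 314 (Cd8b1-gated) and 32 (Cd4 T with S100a6), and Lat between Cd8 T and Cd4 T was -0.32 and not called, which left 1 member called. With edgeR's filterByExpr they were 493 (conventional T), 99 (Cd8a-gated) and 8 (Cd4 T with S100a6). Without ribosomal and mitochondrial genes they were 174 (conventional T), 76 (Cd8 T), 109 (Cd8-negative T), 106 (Cd8b1-gated), 45 (Cd8 T with Ccl5), 6 (Cd4 T with S100a6) and 4 (NK). Gates on thinned cells gave 130 calls between Cd8 T and Cd4 T, with Lat at -0.18 and 1 member called, and by age 63 (Cd8 T), 96 (Cd8b1-gated), 8 (Cd8 T with Ccl5), 2 (NK) and 1 (age by class). There Cd6 by age in Cd4 T cells turned from 0.99 to -0.24 (adjusted p = 0.99). The stricter gate gave 20 (Cd8a-gated), 3 (NK), 1 (age by class) and, with edgeR, 0 (Cd4 T with S100a6). The T gate on genes outside the list, added after the data were seen, gave 0.40 for Cd247 against NK cells without a call, 85 (Cd8a-gated), 1 (age by class) and, with edgeR, 0 calls by age in NK cells and in Cd4 T cells with S100a6. The cause of these changes was not tested, apart from the number of genes tested, which the filters set.

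Leaving out 1 sample at a time gave -0.82 to -0.65 for Cd247 and -0.51 to -0.29 for Lat between Cd8 T and Cd4 T cells, with 0 to 2 members called and 40 to 209 calls in all, the fewest without young sample 1. Cd247 against NK cells ranged from 0.44 to 0.64. By age the calls ranged from 68 to 190 in conventional T (68 without young sample 2, 91 without young sample 1), 4 to 193 in Cd4 T (193 without old sample 2), 31 to 163 in Cd8 T (31 without young sample 2), 6 to 18 in NK, 80 to 199 in Cd8-negative T, 32 to 173 in Cd8a-gated T, 5 to 45 in Cd4 T with S100a6, 21 to 107 in Cd8 T with Ccl5 cells and 0 to 17 in the age by class test, where the 0 without young sample 2 is edgeR's. Members called by age in Cd8 T cells ranged from 0 to 1, the 1 being Cd3g without old sample 1. Of 600 age values of members under an alternative, 70 changed sign and 1 was called.

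The numbers of the samples did not pair them (correlation of the deviations of young and old sample 1 between -0.107 and 0.011 over conventional T, Cd4 T, Cd8 T and NK cells). A replicate block moved the age calls to 22 in Cd4 T cells with S100a6 and 59 in Cd8-negative T cells, and the crossed pairing, added later, called 409 in conventional T cells. Age in Cd4 T cells without S100a6 and in Cd8 T cells low in Ccl5 could not be tested, with 7 and 4 cells in old sample 1. With 24 NK cells in old sample 2, depth limits every NK value.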

Other observations

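B cells were split by UMIs of Fcer2a, the receptor CD23 of follicular B cells, and S100a6, a split chosen after the data were seen and given without a test. Cells with Fcer2a and no S100a6 (736, 724, 321 and 242 in young samples 1 and 2 and old samples 1 and 2) held Lck at 33.7, 30.7, 30.6 and 20.0 CPM and Zap70 at 2.85, 5.68, 1.33 and 1.54 CPM. Cells with at least 2 S100a6 UMIs and no Fcer2a (219, 146, 1947 and 567) held Lck at 29.8, 31.2, 15.7 and 32.8 CPM and Zap70 at 5.13, 2.97, 1.92 and 12.5 CPM. In old sample 2 Zap70 was thus higher in the second set than in the first. B cells outside both sets, such as those with both Fcer2a and S100a6, were not read here. Cd3g in the same sample stood at 1.54 CPM in the first and 11.6 CPM in the second set. For these 2 Cd3g values the B gate limited the UMIs of all 3 Cd3 genes. The Cd3g level of all B cells was read with a limit on the other Cd3 genes only, so the values are not directly comparable.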
